A study of Homo sapiens with 6 samples.

Results

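The high mobility group (HMG) genes encode abundant, small chromatin proteins of 3 families that bind DNA or nucleosomes and are not histones. They were examined here as the 10 genes of the HMGA (2 genes), HMGB (3 genes) and HMGN (5 genes) families taken by their symbols: HMGA1, HMGA2, HMGB1, HMGB2, HMGB3, HMGN1, HMGN2, HMGN3, HMGN4 and HMGN5. All 10 were among the 19672 genes of the count table, and all 10 were among the 13299 genes that passed the filter on low counts. HMGA proteins grip the narrow groove of AT-rich DNA through short AT-hook motifs, HMGB proteins bend DNA through a pair of HMG boxes followed by an acidic tail, and HMGN proteins bind the nucleosome core itself and loosen compacted chromatin. HMGA2 is mainly an embryonic gene that many carcinomas express again, HMGA1 and HMGB2 are high in dividing cells, and HMGB1 also acts outside the cell as an alarm signal when cells are damaged.

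RNA was measured in SW620, an established human colorectal cancer line, carrying a lentiviral short hairpin RNA and kept under puromycin. There were 3 groups of 2 libraries: a scrambled hairpin (scramble), and C3 and C6, a pair of cell populations with stable silencing of DKC1, which encodes dyskerin, the pseudouridine synthase of H/ACA particles and a telomerase component. All groups therefore carry a vector and the selection, and none is an untransduced line. Which of the study's hairpins C3 and C6 carry, and whether each is 1 clone or a pool, is not stated in the labels, and the genotype tag of C3 replicate 1 reads control against its title.

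Total counts ran from 26077966 to 31021000 per library, so that 3 counts correspond to 0.0967 to 0.115 CPM, the usual unit of counts per scaled library size. By replicate, the 2 scramble libraries held DKC1 at 320 and 315 CPM, those of C3 at 144 and 149, and those of C6 at 70.3 and 67.1. DKC1 fell in both lines, and was lower in C6 than in C3 (log2 difference −1.10 ± 0.06, SE). Of 12 markers of intestinal epithelium 11 were tested, and CDX1 was at 0 in every library. Their summed level was 8510 to 9160 CPM in scramble, 6910 to 7110 in C3 and 8990 to 9100 in C6. The sum hides changes both ways: 1 marker rose and 7 fell in C3, and 4 rose and 3 fell in C6. CDH1 fell by 1.96 on the log2 scale in C3 and 0.30 in C6, EPCAM by 0.38 and 0.50, and VIL1 rose by 0.34 in C3 and fell by 1.08 in C6. These are the 3 that fell in C6. The 4 that rose there were CDH17 (2.07), TFF3 (0.81), KRT19 (0.76) and CDX2 (0.68), with CDH17 and CDX2 low at means of 5.41 and 4.18 CPM in C6. The leukocyte markers PTPRC and CD3E were at 0 in all libraries, as were 3 of 6 fibroblast and endothelial markers (COL3A1, DCN and CDH5). The leukocyte list summed to 15.2 to 17.0 CPM in scramble, 10.7 to 10.8 in C3 and 33.2 to 40.2 in C6, nearly all of it CD68, and the fibroblast and endothelial list to 8.30 to 9.70, 6.10 to 6.65 and 7.05 to 7.10 CPM. The part of these marker changes in the results that follow was not tested. Each pair of libraries is titled as biological replicates, without saying whether they were separate cultures or separate transductions, and the p-values measure the spread between these libraries. In bulk RNA, fewer cells that make a transcript and less of it per cell cannot be told apart.

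Promoter sequences came from RefSeq (GRCh38.p14, from 250 bases before to 50 after an annotated start). They were at hand for 8 of the 10 genes, with 12 starts in all, and not for HMGA2 or HMGB2. Windows of HMGB1, HMGB3, HMGN3 and HMGN5 are shown because these genes were all lower in C6 than in C3, as described further on. Capitals mark CCAAT and the GC box GGGCGG, each on either strand, and neighbouring matches run together. The windows are chr13:30465887-30466186 on the minus strand (the first of 3 starts listed for HMGB1), chrX:150983085-150983384 on the plus strand (the first of 2 for HMGB3), chr6:79234633-79234932 on the minus strand (HMGN3) and chrX:81201864-81202163 on the minus strand (HMGN5).
HMGB1: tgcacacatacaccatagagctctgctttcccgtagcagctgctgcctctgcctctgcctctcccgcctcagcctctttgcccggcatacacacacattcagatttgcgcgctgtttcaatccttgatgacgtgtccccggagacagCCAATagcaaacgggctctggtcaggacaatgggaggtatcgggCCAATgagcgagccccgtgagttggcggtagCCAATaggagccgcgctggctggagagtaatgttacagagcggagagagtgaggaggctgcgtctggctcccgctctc
HMGB3: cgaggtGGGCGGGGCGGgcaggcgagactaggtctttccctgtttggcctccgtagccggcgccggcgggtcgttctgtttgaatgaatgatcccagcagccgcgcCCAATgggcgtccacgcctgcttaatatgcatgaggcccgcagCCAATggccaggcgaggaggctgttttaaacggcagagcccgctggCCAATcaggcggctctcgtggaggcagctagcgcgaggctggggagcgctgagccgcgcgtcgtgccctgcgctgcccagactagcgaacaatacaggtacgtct
HMGN3: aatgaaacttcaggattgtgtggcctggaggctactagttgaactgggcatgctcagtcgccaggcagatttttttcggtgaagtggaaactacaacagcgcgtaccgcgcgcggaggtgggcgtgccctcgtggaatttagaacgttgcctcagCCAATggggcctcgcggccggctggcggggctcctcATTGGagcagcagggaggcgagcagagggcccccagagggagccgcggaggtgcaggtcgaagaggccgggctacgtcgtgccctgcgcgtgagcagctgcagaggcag
HMGN5: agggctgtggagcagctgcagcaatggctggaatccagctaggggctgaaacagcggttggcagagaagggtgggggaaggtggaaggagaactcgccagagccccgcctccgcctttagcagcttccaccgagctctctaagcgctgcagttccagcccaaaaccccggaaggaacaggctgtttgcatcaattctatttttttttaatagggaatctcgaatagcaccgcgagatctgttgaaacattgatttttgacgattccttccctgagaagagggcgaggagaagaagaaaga
The HMGB1 and HMGB3 windows shown each held CCAAT 3 times and the HMGN3 window held it 2 times, while the HMGN5 window held neither motif. The other starts of HMGB1 held CCAAT 1 and 0 times and GGGCGG 9 and 2 times. The second start of HMGB3 held CCAAT 0 times and GGGCGG 11 times. Which start SW620 uses was not tested. The 12 starts include none of HMGA2 or HMGB2. Over them, 8 windows held CCAAT, against 34.6% of all 35116 promoter windows, and 8 held GGGCGG, against 45.0%. The E2F motifs TTTCCCGC and TTTGGCGC were in 0 of the 12 windows, against 2.27% of all, and the CHR element TTTGAA, searched on both strands like the others, was in 2, against 15.2%. These matches describe letters in a window and identify no bound factor.

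HMGA2 is the textbook target of the let-7 microRNAs, and the sites are shown because HMGA2 was the HMG gene with the largest rise in the mean of both lines. The 9 mature let-7 family sequences listed by RefSeq share 1 seed (bases 2 to 8, in capitals), as in let-7a. In the 3003-base 3′ untranslated region of the longest matched HMGA2 transcript (GENCODE release 29, GRCh38, plus strand) the complement of that seed, CTACCTC, occurred 4 times, marked by capitals in the stretches from chr12:65963299-65963320, chr12:65964534-65964555, chr12:65964946-65964967 and chr12:65965799-65965820.
let-7a-5p: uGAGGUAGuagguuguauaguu
HMGA2 site 1: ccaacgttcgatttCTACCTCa
HMGA2 site 2: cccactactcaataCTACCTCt
HMGA2 site 3: tgacttgcaaagacCTACCTCc
HMGA2 site 4: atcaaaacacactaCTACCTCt
HMGA1 site: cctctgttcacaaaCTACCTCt
HMGA1 held 1 match (chr6:34245830-34245851, plus strand), and the other 8 HMG genes held 0. Of 18908 genes with a matched 3′ untranslated region 8.73% held at least 1 match. Of the 3007 genes whose region was at least as long as that of HMGA2, 0.266% held at least as many. MicroRNAs were not measured in these libraries, and their part in the HMGA2 level was not tested.

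Levels were compared between genes per kilobase of the longest matched transcript. The length over which reads were counted is not given, so the order is uncertain. HMGB1, with a matched transcript of 5485 bases, had a scramble mean of 209 CPM before division by length, near HMGN1 (230) and HMGN2 (215). In scramble HMGA1 was the highest at 806 and 783 CPM per kilobase, followed by HMGB2 (283 and 260), HMGN2 (188 and 174), HMGN1 (170 and 162) and HMGN4 (98.0 and 93.9). HMGB1 (39.7 and 36.5), HMGB3 (37.1 and 36.5) and HMGN3 (35.0 and 36.2) lay close together, and the first 2 of these overlapped between libraries. HMGN5 followed at 8.28 and 7.29, and HMGA2 was the lowest at 5.79 and 5.86 CPM per kilobase. In C6 HMGA2 stood at 10.5 and 11.7 CPM per kilobase and HMGN5 at 6.16 and 6.59, so the order of these 2 genes was turned there. The plot of levels by library shows each gene on its own CPM scale.

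**Figure D1:**
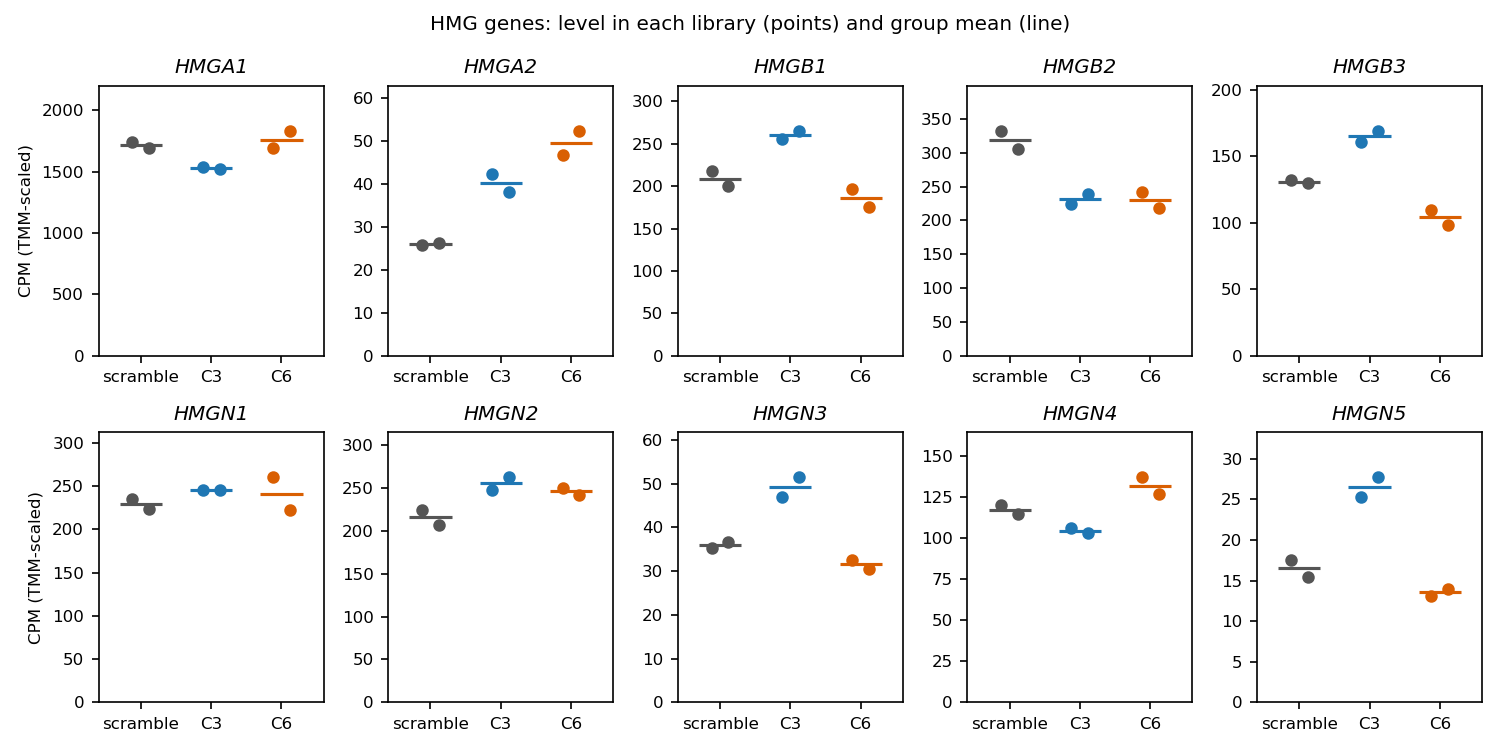
Level of each HMG gene in CPM (vertical axis, starting at 0) in scramble, C3 and C6. Points are the 2 libraries of a group and lines their mean; HMGA2 rises from 26.1 to 40.2 and 49.6 CPM, HMGB2 falls from 319 to 232 and 230, and HMGB3, HMGN3 and HMGN5 are highest in C3 and lowest in C6.

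Each line was set against scramble by edgeR's quasi-likelihood test, fitted to all genes and adjusted by Benjamini-Hochberg. At an adjusted p of 0.05, 8 of 10 HMG genes changed in C3, 6 higher and 2 lower, where 24.3% of all genes tested were called (12.4% higher and 11.9% lower). In C6, 6 of 10 changed, 3 higher and 3 lower, where 46.7% of all genes were called (23.8% higher and 22.8% lower). In the mean of both lines 3 of 10 changed, 2 higher (HMGA2 and HMGN2) and 1 lower (HMGB2), against 32.9% of all genes (16.6% higher and 16.3% lower). With the 4 knockdown libraries treated as 1 group these 3 calls were lost, at the same log2 values of 0.78, 0.22 and −0.47 (adjusted p = 0.0783, 0.283 and 0.0719 by edgeR). Few calls remained anywhere in that fit, 80 of all 13299 genes. Between C6 and C3, 7 of 10 differed, 3 higher and 4 lower in C6, against 49.2% (25.1% higher and 24.1% lower). Among the 7772 genes with a mean level of at least 18.9 CPM, that of HMGN5, the lowest HMG gene, the called shares were 26.9% in C3, 52% in C6, 36.8% in the mean and 55.4% between C6 and C3. The HMG share lay above the background in C3 and near it in the mean of both lines and in C6. Without scramble replicate 2, which leaves that group 1 library, fewer HMG genes were called in C3, and fewer of all genes too. The median log2 fold change of the 10 genes was 0.28 in C3 and −0.07 in C6, beside 0.00 and −0.01 over all genes. C3 and C6 were compared with the same 2 scramble libraries.

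**Figure D2:**
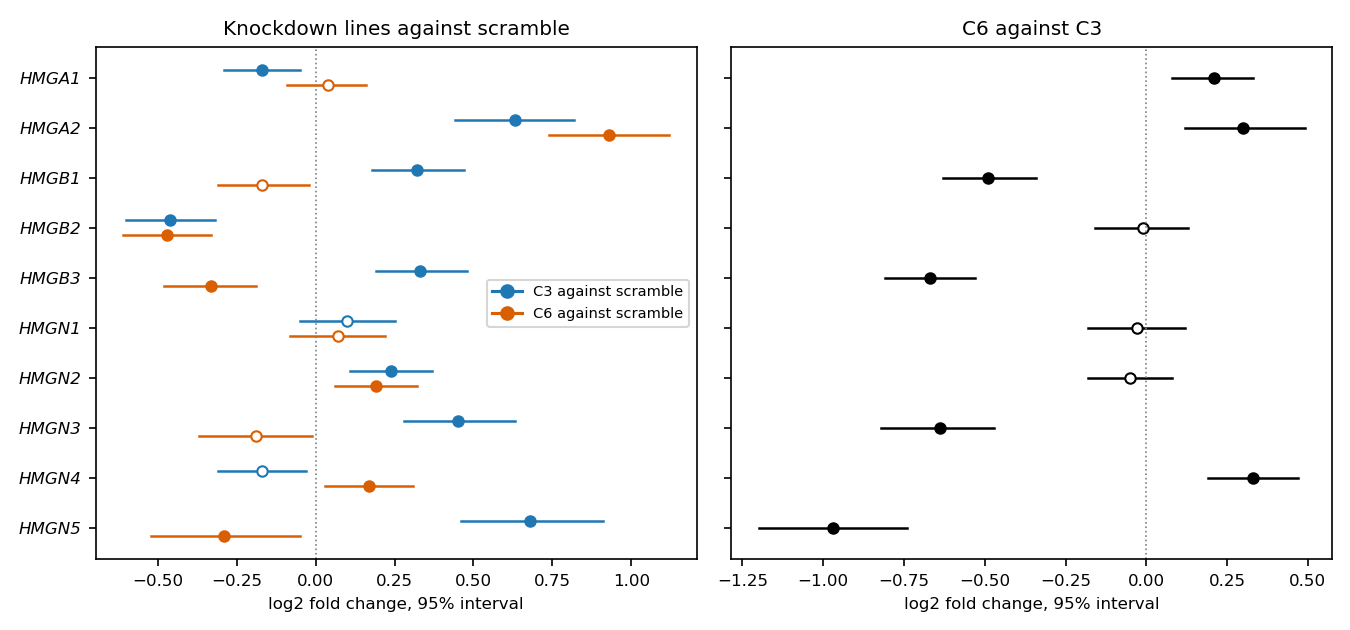
Log2 fold change with its 95% interval (horizontal axis) for the 10 HMG genes, in C3 and C6 against scramble (left) and in C6 against C3 (right); filled points have an adjusted p under 0.05. HMGA2 lies right of 0 and HMGB2 left of 0 in both lines, while HMGB3 and HMGN5 are filled on opposite sides.

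In the HMGA family the 2 genes did not move alike. HMGA2 stood at 25.9 and 26.2 CPM in scramble, 42.3 and 38.1 in C3, and 46.8 and 52.4 CPM in C6. All 4 knockdown libraries were above both scramble libraries, and both C6 libraries were above both C3 libraries. HMGA2 rose by 0.63 ± 0.09 on the log2 scale (SE) in C3, or 1.54-fold (adjusted p = 0.000109 by edgeR), and by 0.93 ± 0.09, or 1.90-fold, in C6 (adjusted p = 7.27e-07 by edgeR). The difference between the lines was 0.30 ± 0.09 (adjusted p = 0.00867 by edgeR), which lost its call without C3 replicate 2 (0.23, adjusted p = 0.114) or without C6 replicate 2 (0.22, adjusted p = 0.0959). The calls of HMGA2 against scramble held in all 13 alternatives of each line.

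HMGA1 was the most abundant HMG transcript, at 1740 and 1690 CPM in scramble, 1540 and 1520 in C3, and 1690 and 1830 CPM in C6. Both C3 libraries were below the other 4, and the C6 and scramble ranges overlapped. HMGA1 fell by 0.17 ± 0.06 in C3 (adjusted p = 0.0456 by edgeR), a call that held in 6 of 13 alternatives. It was lost without either scramble library (−0.15 and −0.19), either C3 library (−0.18 and −0.16) or C6 replicate 2 (−0.17). HMGA1 also lost this call with the replicate number as a block (−0.17) and with the shift of neighbouring genes removed (−0.12). Its value in C6 was 0.04, with a 95% interval from −0.09 to 0.16. HMGA1 was higher in C6 than in C3 by 0.21 ± 0.06 (adjusted p = 0.00879 by edgeR), and the difference was 0.06 with the shift of neighbouring genes removed (adjusted p = 0.434). That call was also lost without C3 replicate 1 (0.22, adjusted p = 0.0542), C3 replicate 2 (0.20, adjusted p = 0.0806) or C6 replicate 2 (0.15, adjusted p = 0.105). The ratio of HMGA2 to HMGA1 counts does not depend on the scaling between libraries. Scramble had ratios of 0.0149 and 0.0155, C3 of 0.0275 and 0.0251, and C6 of 0.0276 and 0.0287. It was higher in every knockdown library than in both scramble libraries.

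The HMGB family held the one HMG gene that fell in both lines. HMGB2, which cells make most of while they divide, stood at 332 and 306 CPM in scramble, 224 and 239 in C3, and 242 and 218 CPM in C6. All 4 knockdown libraries were below both scramble libraries, and the C3 and C6 ranges overlapped. HMGB2 fell by 0.46 ± 0.07 on the log2 scale in C3 (adjusted p = 0.000131 by edgeR) and by 0.47 ± 0.07 in C6 (adjusted p = 3.92e-05 by edgeR), to 72.7% and 72.1% of scramble. C6 and C3 differed by −0.01, with a 95% interval from −0.16 to 0.13.

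HMGB1 showed another pattern, at 218 and 200 CPM in scramble, 256 and 265 in C3, and 197 and 175 CPM in C6. Both C3 libraries were above the other 4, and both C6 libraries were below both of scramble. HMGB1 rose by 0.32 ± 0.07 in C3 (adjusted p = 0.00279 by edgeR), a call lost without scramble replicate 2 (0.26, adjusted p = 0.0621). Its value in C6 was −0.17 ± 0.07 (adjusted p = 0.058 by edgeR), and it was called there with upper-quartile scaling (−0.23, adjusted p = 0.0149), when genes had to reach 1 CPM in at least 2 libraries (adjusted p = 0.046) and without C6 replicate 1 (−0.26, adjusted p = 0.0189). It was smaller without C6 replicate 2 (−0.08, adjusted p = 0.425), without scramble replicate 1 (−0.10, adjusted p = 0.366) and with the shift of neighbouring genes removed (−0.08, adjusted p = 0.351). C6 lay below C3 by −0.49 ± 0.07 (adjusted p = 2.91e-05 by edgeR).

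HMGB3, a family member known from blood progenitor cells, was called on both sides of scramble. It stood at 132 and 130 CPM in scramble, 161 and 169 in C3, and 110 and 98.3 CPM in C6. No ranges overlapped: C3 was the highest group and C6 the lowest. HMGB3 rose by 0.33 ± 0.07 in C3 (adjusted p = 0.0017 by edgeR) and fell by 0.33 ± 0.07 in C6 (adjusted p = 0.000854 by edgeR). The difference of C6 from C3 was −0.67 ± 0.07 (adjusted p = 9.43e-07 by edgeR), and these 3 calls held in all 13 alternatives of each comparison. The mean of both lines, 0.00 with a 95% interval from −0.12 to 0.12, does not show these opposite changes.

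Within a library, the make-up of the HMGB counts differed by group. Per library, HMGB2 had 1.52 and 1.53 times the counts of HMGB1 in scramble, 0.876 and 0.904 times in C3, and 1.23 and 1.25 times in C6. The 3 groups did not overlap, and C3 was the only group with more HMGB1 than HMGB2 counts. Counts also depend on transcript length, and the longest matched transcript has 5485 bases for HMGB1 and 1175 for HMGB2. Per kilobase HMGB2 stayed above HMGB1 in C3, at means of 197 and 47.5 CPM. HMGB2 had 2.51 and 2.36 times the counts of HMGB3 in scramble, and these ratios were 1.40 and 1.41 in C3 and 2.21 and 2.22 in C6. The ratio of HMGB3 to HMGB1 overlapped between scramble (0.606 and 0.651) and C3 (0.627 and 0.640) and was lower in C6 (0.556 and 0.563). These count ratios, and the background among genes of at least that level, were chosen after the values were seen and carry no test.

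**Figure D3:**
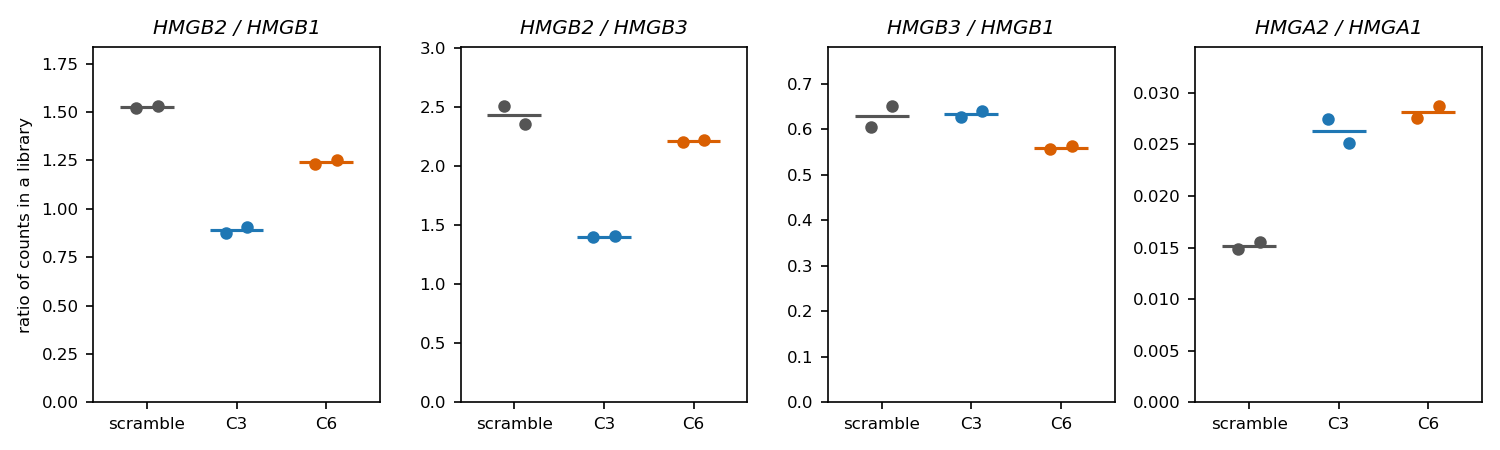
Ratio of the counts of 2 HMG genes within each library (vertical axis, starting at 0) in scramble, C3 and C6; points are libraries and lines group means. HMGB2 to HMGB1 averages 1.53 in scramble, 0.890 in C3 and 1.24 in C6, and HMGA2 to HMGA1 rises from 0.0152 to 0.0263 and 0.0282.

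In the HMGN family HMGN3, HMGN4 and HMGN5 were called between C3 and C6, and HMGN1 and HMGN2 were not. HMGN5, the family member with a long acidic tail, had 17.6 and 15.5 CPM in scramble against 25.3 and 27.7 in C3 and 13.1 and 14 in C6. No ranges overlapped, with C3 highest and C6 lowest. HMGN5 rose by 0.68 ± 0.11 in C3, or 1.60-fold (adjusted p = 0.000242 by edgeR). Its fall in C6, by 0.29 ± 0.11 (adjusted p = 0.0481 by edgeR), held its call in 5 of 13 alternatives. It was lost without scramble replicate 1 (−0.19), without either C6 library (−0.24 and −0.33) or either C3 library (−0.28 each), and with DESeq2 (adjusted p = 0.123). The difference of C6 from C3 was −0.97 ± 0.11 (adjusted p = 2.97e-06 by edgeR), which put C6 at 51.1% of C3, the largest difference of the 10 genes.

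HMGN3, made in a long and a short form by splicing, stood at 35.3 and 36.6 CPM in scramble, 46.9 and 51.4 in C3, and 32.5 and 30.6 CPM in C6. Again no ranges overlapped, with C3 highest. HMGN3 rose by 0.45 ± 0.08 in C3 (adjusted p = 0.00086 by edgeR). In C6 its value was −0.19 ± 0.08 (adjusted p = 0.0772 by edgeR), and −0.25 with upper-quartile scaling, where it was called (adjusted p = 0.0246). C6 was lower than C3 by a difference of −0.64 ± 0.08 (adjusted p = 1.25e-05 by edgeR).

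HMGN4 lay the other way round from HMGN3 and HMGN5. It stood at 120 and 115 CPM in scramble, 106 and 103 in C3, and 137 and 127 CPM in C6, and no ranges overlapped. Its value in C3 was −0.17 ± 0.07 (adjusted p = 0.0799 by edgeR), called with upper-quartile scaling (−0.20, adjusted p = 0.0375). It rose by 0.17 ± 0.07 in C6 (adjusted p = 0.0458 by edgeR), a call that held in 4 of 13 alternatives. It was lost without C6 replicate 1 (0.11), without either scramble library (0.20 and 0.14) or either C3 library (0.17 each), and with upper-quartile scaling (0.11). It was also lost with another scaling (RLE), with the replicate number as a block and with DESeq2. It was larger, and called, without C6 replicate 2 (0.23, adjusted p = 0.0277) and with the shift of neighbouring genes removed (0.34, adjusted p = 0.000757), beside neighbours at a median of −0.17. The difference between the lines, 0.33 ± 0.07 (adjusted p = 0.000586 by edgeR), held in all 13.

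HMGN2, one of the ubiquitous nucleosome-binding members, stood at 224 and 207 CPM in scramble, 248 and 262 in C3, and 250 and 242 CPM in C6. All 4 knockdown libraries were above both scramble libraries, and the C3 and C6 ranges overlapped. C6 and C3 differed by −0.05, with a 95% interval from −0.18 to 0.08, and with the neighbours’ median as an offset by −0.25, where the difference was called (adjusted p = 0.0035). HMGN2 rose by 0.24 ± 0.06 in C3 (adjusted p = 0.00824 by edgeR) and by 0.19 ± 0.06 in C6 (adjusted p = 0.0171 by edgeR). Without scramble replicate 2 the values were 0.19 and 0.14, neither of them called (adjusted p = 0.111 and 0.163), and the mean was 0.16 (adjusted p = 0.115). The C3 call was lost without C3 replicate 2 (0.20, adjusted p = 0.12), and the C6 call without C6 replicate 1 (0.17, adjusted p = 0.0868) and with upper-quartile scaling (0.13, adjusted p = 0.1). HMGN1, its close relative, stood at 235 and 224 CPM in scramble, 246 and 246 in C3, and 260 and 222 CPM in C6, and the C6 range spanned that of scramble and C3. HMGN1 was not called, with a 95% interval from −0.05 to 0.25 in C3 and from −0.08 to 0.22 in C6. Without C6 replicate 2 it was called in C6 (0.18, adjusted p = 0.0489), and without C6 replicate 1 the value there was −0.04 (adjusted p = 0.639). With the shift of neighbouring genes removed it was −0.03.

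Each HMG gene was also set beside its chromosomal neighbourhood, the 50 tested genes around it. These windows differed in span, from 3.38 megabases for HMGN2 to 31.9 for HMGN3, with 28.7 for HMGB2. HMGB2 (GRCh38 chromosome 4, 173331376 to 173334358) lay in a stretch that was lower in both lines. The median log2 fold change of its neighbours was −0.50 in C3 and −0.55 in C6, with 98.0% and 92.0% of them below 0, and 66.0% and 52.0% of them at or below HMGB2 itself. With the running median of each line entered as an offset, HMGB2 was not called: C3 gave 0.04 (adjusted p = 0.771) and C6 gave 0.07 (adjusted p = 0.421). The running median is made from the same libraries and includes HMGB2 itself.

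The neighbourhoods of the other HMG genes had medians between −0.17 and 0.22 in either line. For HMGA2 (chromosome 12, 65824460 to 65966291) the neighbours' median was 0.08 in C3 and −0.09 in C6, and 0 of 50 neighbours rose as far as HMGA2 in either line. Next to it, MSRB3 stood at 0.21 and 0.01, and LLPH at 0.08 and 0.16. HMGB3 (chromosome X, 150980507 to 150990771) fell in C6 while its neighbours' median there was 0.22, and with the offset its value in C6 was −0.55. On one side of it, CD99L2 stood at 0.00 in C3 and −0.59 in C6, and VMA21, on the other side, at 0.08 and −0.04. For HMGN5 (chromosome X, 81113699 to 81201913) the neighbours' median was 0.03 in C3 and −0.09 in C6, and for HMGN3 (chromosome 6, 79201245 to 79234682) −0.02 and −0.16. Beside HMGN5, BRWD3 stood at 0.29 in C3 and −0.42 in C6, and SH3BGRL, on the other side, at 0.03 and 0.02. On either side of HMGN3, PHIP stood at 0.25 in C3 and −0.32 in C6 and LCA5 at 0.14 and −0.69. For HMGB1 (chromosome 13, 30456704 to 30617597) the neighbours' medians were 0.01 and −0.07. HMGN2 (chromosome 1, 26472440 to 26476642) had neighbours at a median of 0.13 in C6, and with the offset its value there was 0.03 (adjusted p = 0.788).

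**Figure D4:**
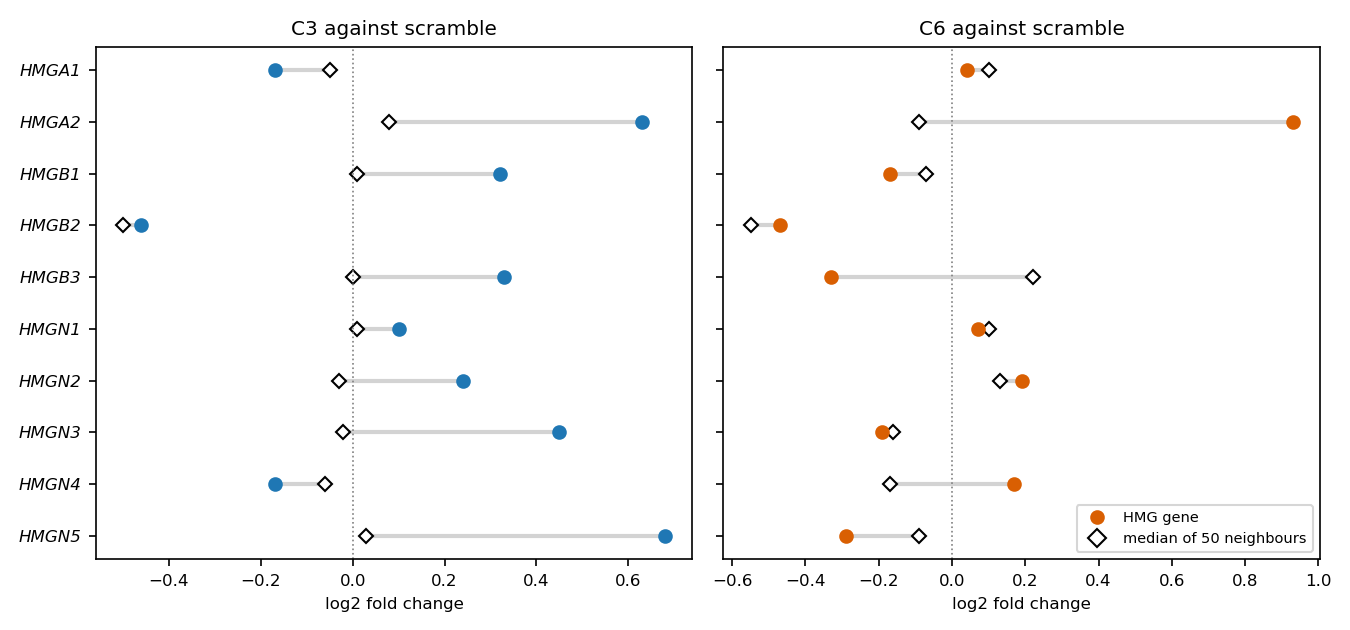
Log2 fold change against scramble (horizontal axis) of each HMG gene (filled circle) and the median of its 50 neighbouring tested genes (open diamond), in C3 (left) and C6 (right). HMGB2 sits beside its neighbours' medians of −0.50 and −0.55, while HMGA2 lies far right of its neighbours in both lines and HMGB3 lies left of its neighbours in C6.

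Near-identical copies bear on the counts of some of these genes. RefSeq names 50 pseudogenes of HMGB1, 48 of HMGN2, 38 of HMGN1, 32 of HMGB3 and 8 of HMGA1, 1 each of HMGB2 and HMGN3, and 0 of HMGA2, HMGN4 and HMGN5. The count table lists 0 of these pseudogenes, and no source used here says how reads that match a gene and its copies were assigned. The levels of HMGA1, HMGB1, HMGB3, HMGN1 and HMGN2, each with several named copies, are uncertain to that extent. Whether reads are shared between the HMG genes themselves was not tested. HMGA2 overlaps RPSAP52, HMGA2-AS1 and HMGA2-AS2, and HMGN3 overlaps HMGN3-AS1. The library kit keeps strand, but whether the counting used it is not given.

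Genes with the most similar profile were sought over the 6 libraries among 10415 genes with at least 5 CPM, by the root mean square difference of the centred log2 CPM. Nearest to HMGA2 was SNAI2, at a distance of 0.043, which stood at log2 fold changes of 0.61 in C3 and 0.86 in C6, followed by COLGALT2 at 0.065. Nearest to HMGB2 were ERICH2 (0.030) and EPCAM (0.049), the latter at −0.38 and −0.50. HMGB1 lay nearest to EBNA1BP2 (0.021) and SLIRP (0.031), HMGB3 to EMC8 (0.016) and HAT1 (0.029), and HMGN2 to XRCC6 (0.013) and RAN (0.021). HMGN3 lay nearest to RIN2 (0.035) and PIH1D1 (0.037), HMGN5 to MC1R (0.078) and KLHDC3 (0.081), HMGN4 to MIA2 (0.021) and HMGA1 to DUSP7 (0.021). The 6 libraries form 3 groups, so such likeness rests on few independent points and is given as a description.

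Other chromatin genes were set beside the HMG genes as lists. Of 23 tested genes that carry an HMG box outside the HMGB family, 5 rose and 0 fell in C3, and 5 rose and 5 fell in C6. TOX3 rose in both lines (0.34 and 0.38), as did the WNT pathway factor TCF7 (0.48 and 0.37). NSD2, a histone methyltransferase with an HMG box, fell by 0.87 in C6, where the RNA polymerase I factor UBTF fell by 0.36. Between the lines 10 of the 23 were lower and 2 higher in C6. Linker histones also bind nucleosomes and compete with HMG proteins for binding to chromatin. Of 4 tested, 2 rose and 0 fell in C3 and in C6, among them H1-10, which rose by 0.36 and 0.39. H1-2 fell in the mean of both lines (−0.28, adjusted p = 0.0383 by edgeR) and was not called in either line alone. The replication-dependent linker histone messages lack a poly(A) tail and are poorly captured by such libraries.

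Of 17 other architectural chromatin proteins 4 rose and 1 fell in C3, and 2 rose and 10 fell in C6. The nucleolar histone chaperone NCL rose by 0.21 in C3 and fell by 0.77 in C6, the coactivator SUB1 rose by 0.31 and 0.40, and the genome organiser SATB1 fell by 2.14 in C6. In the SET complex, the nuclease and chaperone assembly in which HMGB2 was found, 3 of 6 genes rose and 0 fell in C3, and 2 rose and 2 fell in C6. NME1 rose by 0.47 and 0.28, and ANP32A and SET rose by 0.44 and 0.31 in C3 and stood at 0.07 and −0.03 in C6. All 6 differed between the lines, 5 of them lower in C6.

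Among 9 tested receptors and partners of extracellular HMGB1, 1 rose and 2 fell in C3, and 3 rose and 3 fell in C6. The lipopolysaccharide receptor TLR4, low in all libraries, had 2.97 and 3.54 CPM in scramble against 0.678 and 0.818 in C3 and 5.85 and 5.46 in C6. It fell in C3 (−2.12) and rose in C6 (0.80). CD24, a surface glycoprotein, fell by 0.32 in C6. In the let-7 and LIN28 list 7 genes were tested; 1 rose and 0 fell in C3, and 1 rose and 3 fell in C6. LIN28A and LIN28B, which block let-7 maturation, did not pass the filter. IGF2BP3, an RNA-binding protein, rose by 0.26 in C3 and 0.46 in C6, and TUT4, a uridylyltransferase that acts on let-7 precursors, fell by 0.43 in C6. The share of called genes over the whole table, given above for each comparison, applies to these lists too.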

How the data were processed

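Messenger RNA of 6 SW620 libraries was analysed from 1 table of read counts per gene that the authors deposited, in whole numbers and unscaled. The submitters' processing notes name build hg38, HISAT2 2.1.0, Trimmomatic 0.38, DESeq2 and StringTie 2.1.3b. No source used here gives their order, the strand setting or the assignment of reads to genes.

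Libraries were grouped by title. Counts were tested with edgeR 4.0.16 (R 4.3.3; TMM scaling, filterByExpr, robust quasi-likelihood fit of 3 groups with 3 residual degrees of freedom), with Benjamini-Hochberg adjustment over the 13299 genes tested. CPM used TMM-scaled library sizes. Positions came from RefSeq (GRCh38.p14), which matched 19437 of 19672 genes. Replicates differed by more than sampling noise (chi-square per degree of freedom 6.04 to 8.20). The fit was tested on simulated data.

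The rule for named genes took all 10 HMG genes and DKC1, up to 4 genes of each other list by smallest p in the mean comparison, up to 3 examples of each marker list, the nearest genes by profile and the adjacent tested genes. The epithelial markers CDX1, CDH17, TFF3, KRT19 and CDX2 were named beyond that rule. TREX1, CXCR4, TLR9 and H1-4, near the floor in some libraries, are covered by the counts alone. Some genes of the other lists are not reported here. The members and lists were chosen with earlier results of these data known. Alternatives were other scalings, filters, DESeq2 1.42.0, the replicate number as a block, pooled knockdown libraries, an offset by neighbouring genes, and leaving out each library.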

Additional observations from a re-analysis of the deposited data

Results flagged for a closer look

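For 7 HMG genes the effect in C6 differed from the effect in C3 by the direct comparison of the 2 lines (edgeR's quasi-likelihood test, Benjamini-Hochberg over all genes). The log2 effect in C6 minus that in C3 was −0.97 for HMGN5 (adjusted p = 2.97e-06), −0.67 for HMGB3 (9.43e-07), −0.64 for HMGN3 (1.25e-05) and −0.49 for HMGB1 (2.91e-05). It was 0.33 for HMGN4 (0.000586), 0.30 for HMGA2 (0.00867) and 0.21 for HMGA1 (0.00879). Both C6 libraries lay on the stated side of both C3 libraries for each of the 7 genes. For HMGA2 both effects were rises. Of all genes tested 49.2% were called in the same comparison.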

How the results depend on the processing

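Over the single HMG genes and the 4 comparisons, 478 of the values under an alternative kept their side of the threshold. Of the others, 41 lost a call at the same sign, 8 gained one, and 3 lost a call with a change of sign. These 3 were HMGB2 with neighbouring genes as an offset, at 0.04 in C3, 0.07 in C6 and 0.05 in the mean, none of them called. With that offset 3 HMG genes were called in C6, where 5421 of all 13299 genes were called. With the knockdown libraries as 1 group, differences between C3 and C6 enter the spread. There edgeR called 0 HMG genes in the mean (3 at an unadjusted p under 0.05) and 80 of all 13299 genes. DKC1 stood at −1.56 in that fit (adjusted p = 0.124 by edgeR). DESeq2 with 3 groups called 3 HMG genes in the mean and 3519 of all genes. Leaving out 1 library at a time changed the number of called HMG genes in each comparison, and the number of all genes called changed with it. DKC1 then ran from −1.68 to −1.64. A group left with 1 library was assumed to vary like the others. With upper-quartile scaling the 6 calls in C6 were 1 higher and 5 lower, and the median of all genes there was −0.07. That scaling called 6309 of all 13299 genes in C6. With the replicate number as a block 7 HMG genes were called in C3, 4 in C6, 3 in the mean and 7 between C6 and C3. Of all 13299 genes the block fit called 2935, 5878, 4014 and 6243 in the same order. The deviations of same-numbered libraries correlated at −0.047, 0.064 and 0.025 over genes, which shows no strong shift shared by number. Whether same-numbered libraries were prepared together is not stated in the labels. The cause of the other changes was not tested.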
